A study of Drosophila melanogaster with 6 samples.

Results

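The DNA transposons annotated in 6 eCLIP libraries of the Asterix protein were described here as a class, with the foldback element FB4_DM treated apart from the rest. Members were all features whose class label in the library files is TE_DNA. The files listed 2315 such copies of 133537 annotated features, and the copies belonged to 29 elements in 8 superfamilies. FB4_DM made up 244 of the copies and the other 28 elements 2071. Copies of an element were added together per library, since many copies share reads and are not independent of each other. Superfamilies are named as the files name them.

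The libraries came from OSS cells, a cultured line from the somatic sheath of the Drosophila ovary that carries piRNAs but no germ cells. All groups held the same cells, in which Asterix (Gtsf1) is expressed from its own promoter and carries a C-terminal GFP-FRT-Precission-V5-3xFLAG-P2A tag, and the sources used here do not say whether the line is 1 clone. The groups were crosslinked IP (2 libraries, UV at 254 nm, RNase I, anti-FLAG M2 beads), crosslinked input (2 libraries of lysate reserved as input), non-crosslinked IP (1 library) and non-crosslinked input (1 library). The labels do not say that the replicates came from separate cultures, so p-values measure the spread between these libraries, which may be technical. The libraries held 2619716 to 15992638 reads, of which rRNA took 73.2% to 85.8% of the annotated ones. Unannotated reads were 1.98% and 2.22% in crosslinked inputs, 5.54% and 5.99% in crosslinked IPs, 4.07% in non-crosslinked input, 12.9% in non-crosslinked IP. Of the somatic ovarian markers, tj (a transcription factor of somatic gonad cells) had 91 to 1190 exon reads per library, and flam, the main piRNA locus of these cells, had 1618 to 29452 reads. Fas3, a cell adhesion gene of somatic follicle cells, had only 2 to 27 exon reads. The 6 germline markers summed to 0.829 to 2.66 RPM (reads per 1000000 annotated reads), against 87.8 to 473 for the exons of tj, Fas3 and piwi, nearly all of it from tj and piwi. Of the 6, osk, bam and aub had at most 3 exon reads in every library, and the most for any of them was 7 exon reads of AGO3.

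DNA transposons move as DNA, by a transposase that cuts the element out at its terminal inverted repeats and inserts it elsewhere. Most fly copies are short derivatives that keep the ends and lack a working transposase. The FB (foldback) elements are set apart by very long terminal inverted repeats made of short tandem units, and some FB elements carry a second element, NOF, between these repeats. In somatic ovarian cells, nuclear Piwi guided by piRNAs directs transcriptional silencing of transposons, and Asterix is required for that silencing.

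DNA transposon RNA was a small part of every library, and FB4_DM was the element with the most reads in all 6 libraries, although in the IPs the P superfamily as a whole had more. The class had 5341 and 6016 reads in crosslinked inputs against 2142 and 1991 in crosslinked IPs. It had 1192 reads in non-crosslinked input against 203 in non-crosslinked IP. Scaled to annotated reads, the class stood at 439 ± 139 RPM (SD, n = 2) in input and at 242 ± 20.1 RPM (SD, n = 2) in IP with crosslinking. Without FB4_DM these levels were 216 ± 46.7 and 198 ± 19.5 RPM (SD, n = 2 each), a difference smaller than the spread between the inputs. Most of the lower level of the class in the IP lay in FB4_DM.

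FB4_DM had 2472 and 3224 reads in crosslinked inputs against 415 and 350 in crosslinked IPs. These were 157.7 and 287.6 RPM in input and 44.2 and 45.1 RPM in IP. Both IPs lay far below both inputs, and the inputs differed from each other by 1.82-fold while the IPs differed by 1.02-fold. The fitted log2 ratio of IP over input was -2.37 ± 0.23 (SE), with an adjusted p of 1.92e-07 by the quasi-likelihood test of edgeR, adjusted over 9446 items by the Benjamini-Hochberg method. FB4_DM was lower in 4 of 4 IP and input pairs. Where crosslinked input 2, the higher of the inputs, was left out, the log2 ratio was -1.82.

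The same contrast was seen within the class, where the scaling of a library cancels. FB4_DM was 46.3% of DNA transposon reads in crosslinked input 1 (Wilson 95% interval 44.9% to 47.6%) and 53.6% in crosslinked input 2 (52.3% to 54.8%). It was 19.4% in crosslinked IP 1 (17.8% to 21.1%) and 17.6% in crosslinked IP 2 (16.0% to 19.3%). The group means were 49.9% ± 5.2 and 18.5% ± 1.3 (SD, n = 2 each), and no IP value reached an input value. An exact two-sided permutation test gave p = 0.33, the smallest value that 2 against 2 libraries can give. In the non-crosslinked pair the share was 37.8% (35.0% to 40.5%) in input and 22.7% (17.4% to 28.9%) in IP. The intervals cover counting error within a library alone and leave out the spread between libraries. The treatment of PCR copies is not given in the sources used here, so even the counting error may be larger.

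**Figure D1:**
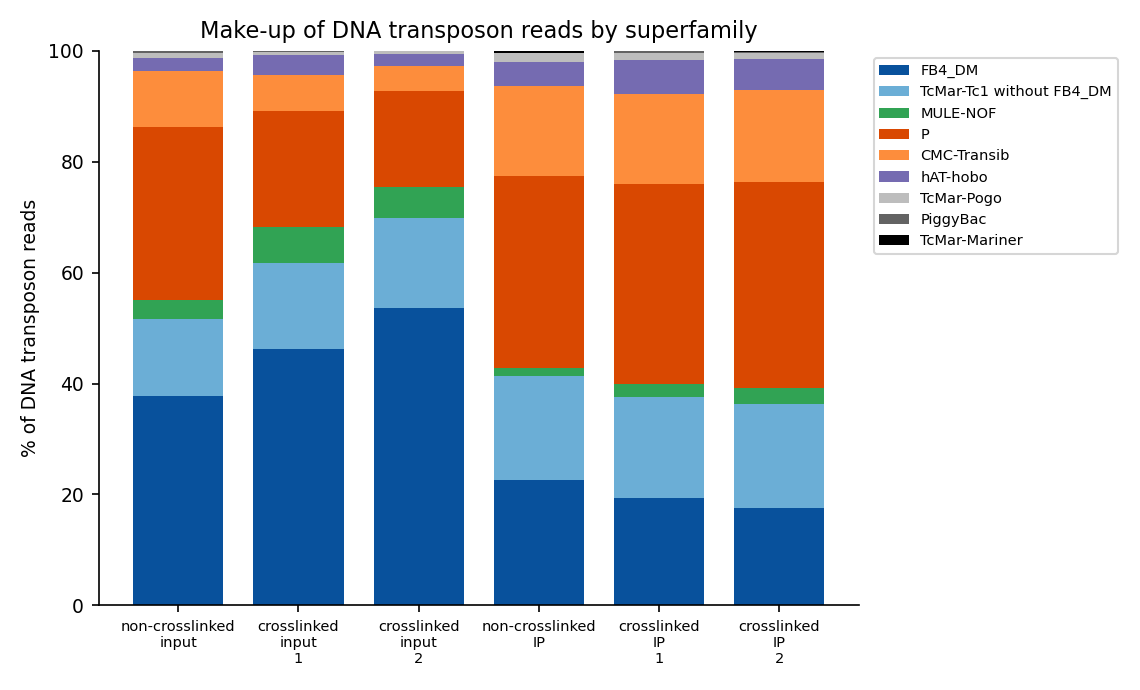
Share of DNA transposon reads (y axis, %) taken by FB4_DM and by each superfamily in each of the 6 libraries (1 bar per library; TcMar-Tc1 is drawn without FB4_DM, which the files place in it). FB4_DM takes 46.3% and 53.6% in crosslinked inputs against 19.4% and 17.6% in crosslinked IPs, while the share of the P superfamily is 20.8% and 17.3% in those inputs and 36.1% and 37.1% in those IPs.

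Set against the Helitron repeat DNAREP1_DM, a different class of DNA-based repeat and one of the most abundant in these libraries, FB4_DM again stood lower in the IPs. The crosslinked inputs held 1.00 and 1.77 FB4_DM reads per DNAREP1_DM read, and the crosslinked IPs held 0.223 and 0.232. In the non-crosslinked pair the values lay closer, at 0.570 in input and 0.390 in IP. There DNAREP1_DM itself was lower in the IP, at 196 RPM in input against 51.7 RPM in IP. The closer values are therefore no measure of a smaller drop of FB4_DM. The exact permutation p was again 0.33, the smallest possible. DNAREP1_DM itself did not pass the test, with a log2 ratio of 0.25 in the same fit.

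Among the superfamilies, the levels moved in different directions between crosslinked input and crosslinked IP. The P superfamily stood at 81.7 ± 15.4 RPM in input and 88.7 ± 8.97 RPM in IP (SD, n = 2 each), with overlapping libraries. CMC-Transib, whose transposase is related to the RAG1 recombinase of vertebrates, stood at 23.6 ± 1.52 and 39.6 ± 3.93 RPM, and its libraries did not overlap. TcMar-Tc1 without FB4_DM stood at 70.0 ± 25.0 and 44.8 ± 4.64 RPM. MULE-NOF, which consists of NOF_FB alone, stood at 26.3 ± 5.05 and 6.42 ± 1.67 RPM. The hAT superfamily, here HOBO alone, stood at 11.4 ± 0.523 and 14.2 ± 0.342 RPM. TcMar-Pogo stood at 2.70 ± 0.476 and 2.96 ± 0.179 RPM, and PiggyBac and TcMar-Mariner each had fewer than 1 RPM in every library.

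In the non-crosslinked pair, of 1 library each, the larger superfamilies were all lower in the IP. P stood at 92.7 RPM in input against 30.7 RPM in IP, CMC-Transib at 29.8 against 14.5 RPM, and TcMar-Tc1 without FB4_DM at 41.3 against 16.6 RPM. MULE-NOF stood at 9.94 against 1.31 RPM, hAT-hobo at 6.96 against 3.94 RPM, and TcMar-Pogo at 2.73 against 1.31 RPM. For P, CMC-Transib, hAT-hobo and TcMar-Pogo this is the opposite order to that of the crosslinked means. The share of all items that were lower in this IP was not computed, and DNAREP1_DM was lower in it too. Scaled by library size only, the log2 ratio with crosslinking less that without had a median of 0.57 over all 8265 items. The lower levels are thus not shown to be particular to these superfamilies.

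Of the 29 elements, 18 passed the count minimum, a mean of at least 10 reads over the 4 crosslinked libraries. By edgeR's quasi-likelihood test with an adjusted p under 0.05, 5 of the 18 were higher in crosslinked IP, 4 were lower and 9 did not pass. Among all 9446 items, 19.9% were called higher and 18.3% lower, so both counts lay near the background. The median log2 ratio of the 18 elements was 0.31, and that of all items was -0.03.

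**Figure D2:**
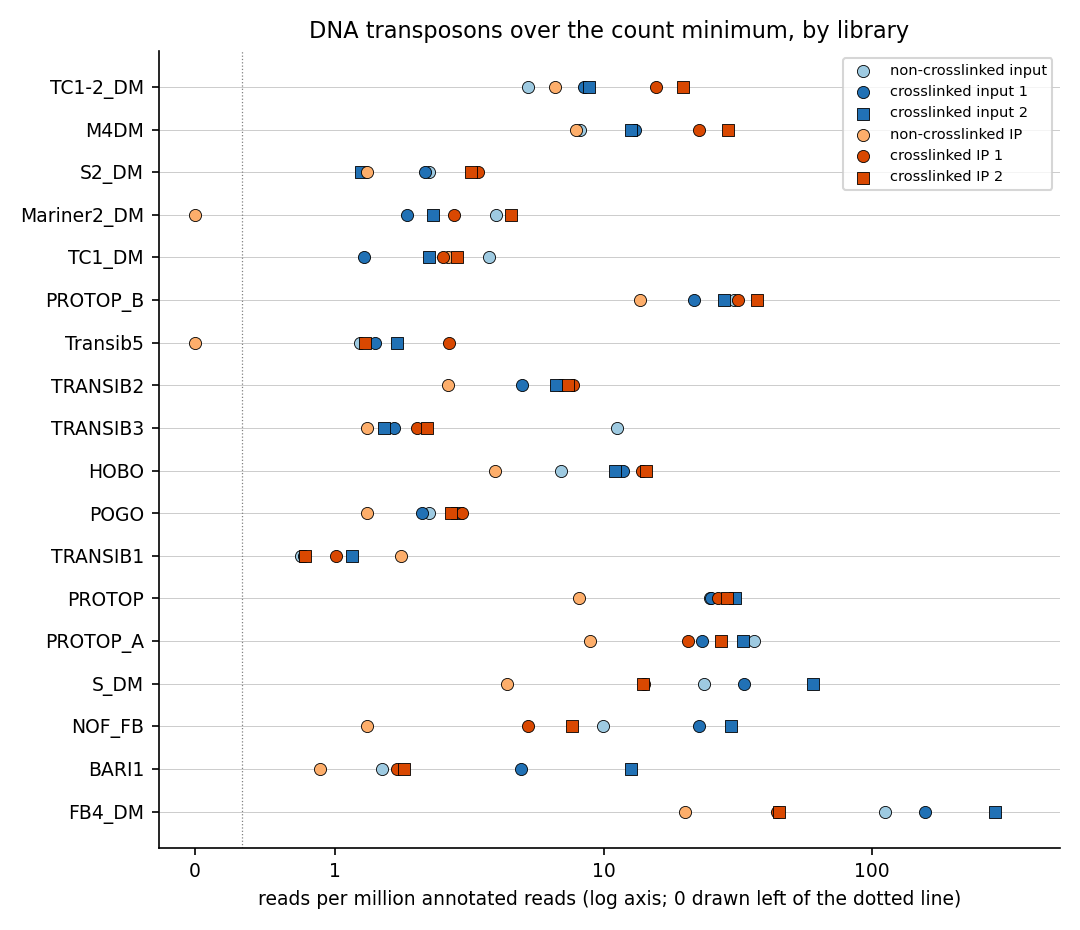
Level of each tested DNA transposon (rows, in the order of their IP over input ratio) in each of the 6 libraries, in RPM on a log x axis; libraries at 0 reads are drawn left of the dotted line. FB4_DM, NOF_FB, BARI1 and S_DM have both crosslinked IPs below both crosslinked inputs, and 9 elements, among them M4DM and TC1-2_DM, have both above. The share of all items that separate in this way was not computed, so these counts have no background.

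The 4 elements that were lower in the IP were FB4_DM, NOF_FB, BARI1 and S_DM. NOF_FB, the element carried within some FB elements, had 355.5 and 334.3 reads in crosslinked inputs against 49.2 and 59 in crosslinked IPs. Its log2 ratio was -2.09 ± 0.19 (SE, adjusted p = 1.02e-07 by edgeR), and its level in the IP was 4.09-fold lower. FB4_DM and NOF_FB thus stood at similar ratios, and no test of the difference between them was made. Whether the NOF_FB reads came from within FB4_DM copies cannot be told, since copies have no coordinates here. S_DM, a Tc1-like element, had 524 and 675.5 reads in the inputs and 133 and 109 in the IPs. Its log2 ratio was -1.77 ± 0.22 (SE, adjusted p = 4.64e-06 by edgeR). As for FB4_DM, input 2 was the higher of the inputs, by 1.80-fold in RPM, and the IPs were almost equal. BARI1, a Tc1-like element known for a tandem array in heterochromatin, had 77 and 142 reads in the inputs and 16 and 14 in the IPs. Its log2 ratio was -2.30 ± 0.42 (SE, adjusted p = 0.000269 by edgeR), with inputs that differed by 2.58-fold in RPM. Without crosslinked input 2 the log2 ratio of BARI1 was -1.49.

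The 5 elements that were higher in the IP rose by less. TC1-2_DM, a Tc1-like element, had 132.3 and 99 reads in crosslinked inputs against 147 and 153 in crosslinked IPs, or 8.44 and 8.83 RPM against 15.6 and 19.7 RPM. Its log2 ratio was 0.99 ± 0.15 (SE, adjusted p = 5.22e-05 by edgeR). M4DM, which the files place in CMC-Transib, had 206 and 142 reads in the inputs and 213 and 225 in the IPs, or 13.1 and 12.7 RPM against 22.7 and 29.0 RPM. Its log2 ratio was 0.95 ± 0.14 (SE, adjusted p = 4.37e-05 by edgeR), and M4DM accounted for most of the higher level of CMC-Transib. The IPs of both elements lay above their inputs with no overlap.

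The other 3 calls rested on fewer reads or on smaller differences. S2_DM had 34 and 14 reads in crosslinked inputs against 32 and 25 in crosslinked IPs, with a log2 ratio of 0.86 ± 0.29 (SE, adjusted p = 0.0264 by edgeR). Mariner2_DM had 29 and 26 reads in the inputs and 26 and 35 in the IPs, with a log2 ratio of 0.75 ± 0.29 (SE, adjusted p = 0.0468 by edgeR). PROTOP_B, of the old P-related repeats that include the hoppel elements, had 339 and 315 reads in the inputs and 299 and 289 in the IPs. In RPM these were 21.6 and 28.1 against 31.8 and 37.3, and the log2 ratio was 0.43 ± 0.15 (SE, adjusted p = 0.0326 by edgeR). The call of PROTOP_B was lost in 4 of 11 alternative settings, and those of Mariner2_DM and S2_DM in 5 of 10 each, among them fits that left out 1 library. Elements called higher numbered 3 without crosslinked input 1 and 2 without crosslinked IP 2. The adjusted p over these settings reached 0.287 for PROTOP_B, 0.406 for Mariner2_DM and 0.210 for S2_DM.

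The 9 elements that did not pass included 2 abundant P-related repeats, PROTOP and PROTOP_A. PROTOP had 25.2 and 30.9 RPM in crosslinked inputs against 26.7 and 28.7 RPM in crosslinked IPs, with a log2 ratio of -0.06 ± 0.14 (SE). PROTOP_A had 23.3 and 32.9 RPM in the inputs and 20.6 and 27.3 RPM in the IPs, with a log2 ratio of -0.28 ± 0.17 (SE). The IP and input libraries of both elements overlapped. HOBO, which encodes its own transposase and causes hybrid dysgenesis in some strains, had 11.8 and 11.1 RPM in the inputs and 13.9 and 14.4 RPM in the IPs. Its log2 ratio was 0.26 ± 0.14 (SE, adjusted p = 0.159 by edgeR). The remaining 6 had between 6 and 78 reads in each crosslinked library, and their log2 ratios ran from -0.04 for TRANSIB1 over 0.19 for POGO, 0.35 for TRANSIB3, 0.36 for TRANSIB2 and 0.37 for Transib5 to 0.63 for TC1_DM.

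The 11 elements under the minimum had between 1 and 37 reads over all 6 libraries and were not tested. Galileo_DM, a foldback-like element of the P superfamily, had 6 and 2 reads in the crosslinked inputs, 18 and 10 in the crosslinked IPs, 1 in non-crosslinked input against 0 in non-crosslinked IP. TRANSIB4 had 6 and 10 reads in the crosslinked inputs, 3 and 11 in the crosslinked IPs, 5 in non-crosslinked input against 1 in non-crosslinked IP. P_DG had 4 and 5, 11 and 4, 3 and 0 reads in the same order. In RPM, both crosslinked IPs of Galileo_DM and of P_DG lay above both crosslinked inputs, and those of TRANSIB4 did not.

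**Figure D3:**
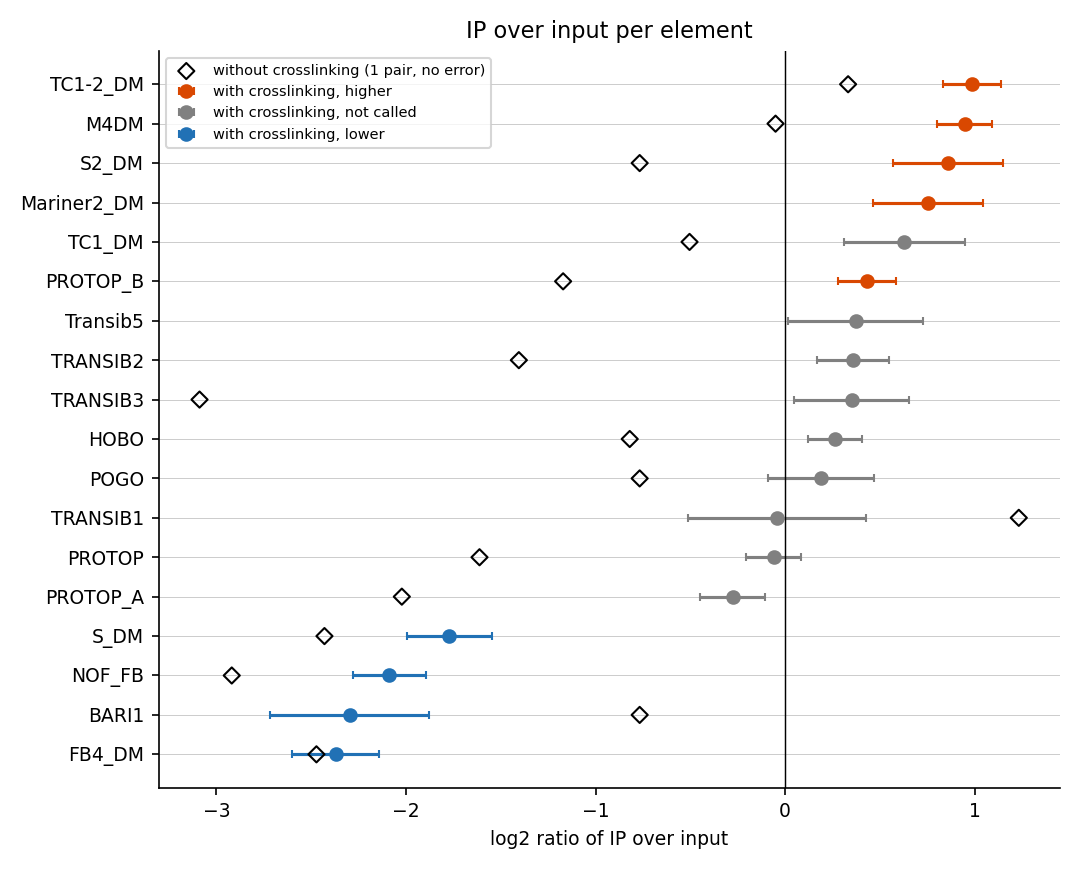
Log2 ratio of IP over input (x axis) for each tested element (rows): filled points are the fitted crosslinked ratios with their SE (n = 2 IP and 2 input libraries), coloured by the test's call, and open diamonds are the plain RPM ratios of the single non-crosslinked pair, which have no error. FB4_DM lies at -2.37 with crosslinking and at -2.47 without; no diamond is drawn for Mariner2_DM and Transib5, which had 0 reads in the non-crosslinked IP.

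Calls of other transposon classes in the same fit are given beside those of the DNA transposons. Of 114 LTR elements tested, 80 were higher and 10 lower in crosslinked IP, with a median log2 ratio of 1.35. Of 34 LINE elements, 9 were higher and 10 lower, with a median of -0.04. No test of the difference between classes was made.

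The non-crosslinked pair shows what the beads recovered without UV. FB4_DM had 450 reads (111.8 RPM) in non-crosslinked input against 46 reads (20.1 RPM) in non-crosslinked IP. That is 5.55-fold lower in the IP, with an exact 95% interval of 4.09 to 7.69 for counting error only. The log2 ratio of plain RPM was -2.47 without crosslinking. With crosslinking it was -2.32 by plain RPM and -2.37 by the edgeR fit, so FB4_DM was lower in the IP with and without UV. The other DNA transposons together were also lower in the non-crosslinked IP, at 184 RPM in input against 68.8 RPM in IP (2.68-fold), while their crosslinked means were 216 and 198 RPM. The lower level without UV was thus not limited to FB4_DM. NOF_FB had 40 reads in non-crosslinked input against 3 in non-crosslinked IP, and S_DM had 95 and 10 (log2 ratio -2.43). M4DM had 32.9 and 18 reads and a log2 ratio of -0.05, and TC1-2_DM had 21 and 15 reads and a log2 ratio of 0.33. BARI1 had 6 and 2 reads, too few to place it.

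The difference between the ratios with and without crosslinking was tested in 1 fit over the 6 libraries, in which the lone non-crosslinked libraries were assumed to vary like the crosslinked replicates. For FB4_DM the difference was -0.39 ± 0.47 (SE, log2, adjusted p = 0.665 by edgeR), and its sign turned to 0.16 without TMM scaling and to 0.14 without crosslinked input 2. Of 17 DNA transposons tested, 2 had a higher ratio with crosslinking and 0 a lower one, while 6.57% of all 8265 items were called higher and 4.98% lower. At an unadjusted p under 0.05 the edgeR counts were 5 and 0 of the 17. Of all 8265 items, 2144 had such a p in either direction, so this count lay near the background. The 2 were TRANSIB3 and Mariner2_DM, and neither passed without crosslinked IP 2 (adjusted p = 0.053 and 0.0638 by edgeR). TRANSIB3 had 45 reads in non-crosslinked input against 3 in non-crosslinked IP, beside 26 and 17 reads in crosslinked inputs against 19 and 17 in crosslinked IPs. Its difference was 2.94 ± 0.69 (SE, log2, adjusted p = 0.0111 by edgeR). In RPM the non-crosslinked input stood at 11.2 against 1.66 and 1.52 in the crosslinked inputs, so the only non-crosslinked input stood apart from the other inputs for this element. Mariner2_DM had 16 reads in non-crosslinked input against 0 in non-crosslinked IP, which is at least 3.03-fold lower against a floor of 3 counts in that IP. P-related repeats stood at log2 ratios of -1.17 (PROTOP_B), -1.61 (PROTOP) and -2.02 (PROTOP_A) without crosslinking, and their differences of 1.11, 1.03 and 1.28 did not pass the test, with adjusted p-values of 0.0617, 0.104 and 0.0786 by edgeR. These differences depend on scaling: without TMM the median of all items moved from 0.03 to 0.57, and the share of calls that were higher moved from 56.9% to 87.3%.

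Single copies showed how unevenly the reads of FB4_DM were spread. Of 244 FB4_DM copies, 49 passed the count minimum as single features. Of these 49, 46 were called lower in crosslinked IP, 2 higher and 1 did not pass, beside 19.7% of all 17781 features called lower and 22.2% called higher. Since reads are shared between copies, the copies do not count the same result independently. A copy with few IP reads could pass the minimum only through the inputs and then had to be lower. In 35 of the 49 both IPs held at most 3 reads. The median log2 ratio was -3.94, and -3.03 with such copies set at 3 counts in each IP.

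The FB4_DM copies above and below the minimum behaved differently in level. The 49 above it held 89.0% and 91.5% of FB4_DM reads in the crosslinked inputs but 47.9% and 39.9% in the crosslinked IPs. They summed to 202 ± 86.8 RPM in input and 19.6 ± 2.25 RPM in IP (SD, n = 2 each). The 195 copies under the minimum summed to 20.9 ± 5.01 RPM in input and 25.0 ± 2.89 RPM in IP, a difference of the order of the spread between libraries. The minimum itself favours copies with many input reads, so this split is a description with no test.

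The FB4_DM copies with the most reads were FB4_DM_dup225, FB4_DM_dup76 and FB4_DM_dup311. FB4_DM_dup225 had 135 and 196 reads in crosslinked inputs against 8.09 and 6.38 in crosslinked IPs. It had 27.2 reads in non-crosslinked input against 1.16 in non-crosslinked IP, and its log2 ratio with crosslinking was -3.94 ± 0.52 (SE, adjusted p = 0.000296 by edgeR). FB4_DM_dup76 had 123 and 177 reads in crosslinked inputs against 6.47 and 6.30 in IPs, and FB4_DM_dup311 had 124 and 177 against 5.43 and 7.53. The counts of these 3 copies differed little in any crosslinked library. The copies with the lowest fitted ratios were FB4_DM_dup261, with 37.7 and 59.2 reads in the inputs and 0.634 and 0.453 in the IPs, and FB4_DM_dup260, with 33.1 and 60.7 reads against 0.40 and 1. Their IP counts lie under the floor of 3 counts, so no fold is given.

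A few FB4_DM copies stood the other way. FB4_DM_dup139 had 6 and 9.06 reads in crosslinked inputs against 18.3 and 11.3 in crosslinked IPs, with a log2 ratio of 1.59 ± 0.41 (SE, adjusted p = 0.0119 by edgeR). FB4_DM_dup262 had 11 and 9.25 reads in the inputs and 21.5 and 7.33 in the IPs, and its log2 ratio of 1.18 ± 0.45 (SE) did not pass, with an adjusted p of 0.0619 by edgeR. The second copy called higher, FB4_DM_dup124, is named after its values were seen. It had 24.3 and 15.2 reads in the inputs and 23.2 and 21.2 in the IPs, and its log2 ratio was 0.83 ± 0.23 (SE). Of 45 FB4_DM copies with an adjusted p, DESeq2 called 0 higher and 42 lower, beside 2291 higher and 1299 lower of 16057 features. At an unadjusted p under 0.05 DESeq2 gave 1 higher and 46 lower of 49 copies, beside 5147 of 17781 features in either direction. By edgeR, 0 copies were called higher without crosslinked input 1 or without crosslinked IP 1.

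**Figure D4:**
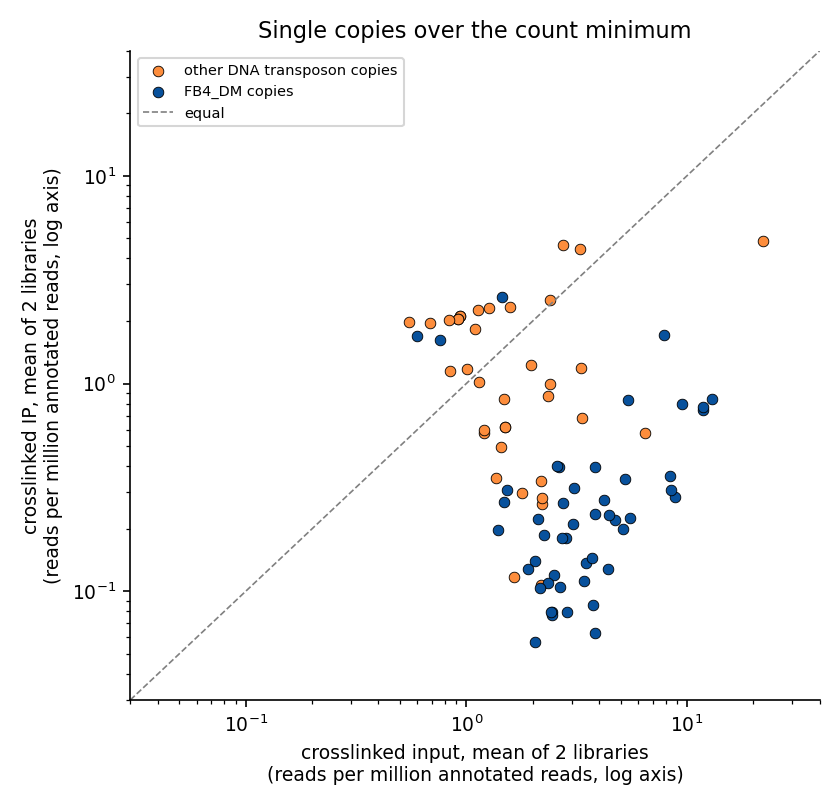
Level of each single DNA transposon copy above the count minimum in crosslinked input (x axis) and crosslinked IP (y axis), each the mean of 2 libraries in RPM on log axes, with the line of equal levels. Of the 49 FB4_DM copies (blue), 46 are called lower in the IP and 3 lie above the line; the 37 other copies (orange) lie on both sides.

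Copies also differed in how their reads had been assigned. An estimated count that is a whole number in every library points to reads that were not divided between features, and a fractional one to reads shared with other features. Of the 244 FB4_DM copies, 36 had whole counts in all 6 libraries (within 1e-06 of a whole number, with 0 for a library that does not list the copy), and together they held 25 and 19 reads in crosslinked inputs against 44 and 46 in crosslinked IPs. Their summed level was 1.64 ± 0.0708 RPM in input and 5.30 ± 0.878 RPM in IP (SD, n = 2 each), 3.22-fold higher in the IP. In the non-crosslinked pair they held 15 reads (3.73 RPM) in input and 8 reads (3.50 RPM) in IP. That input stood above both crosslinked inputs (1.59 and 1.69 RPM). The other 208 copies went from 221 ± 91.8 to 39.3 ± 0.240 RPM, 5.62-fold lower in the IP. The whole-count copies held 0.772% of the FB4_DM reads of crosslinked input against 11.8% of those of crosslinked IP. The split was made after the values were seen and is a description with no test. The rule favours copies with few input reads, because a copy with shared reads in any library fails it. The crosslinked inputs held more FB4_DM reads than the crosslinked IPs. A higher IP level of the whole-count copies may thus be partly built in by the rule. The whole-count copies held few reads each, and the part of low counts in this pattern was not tested.

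**Figure D5:**
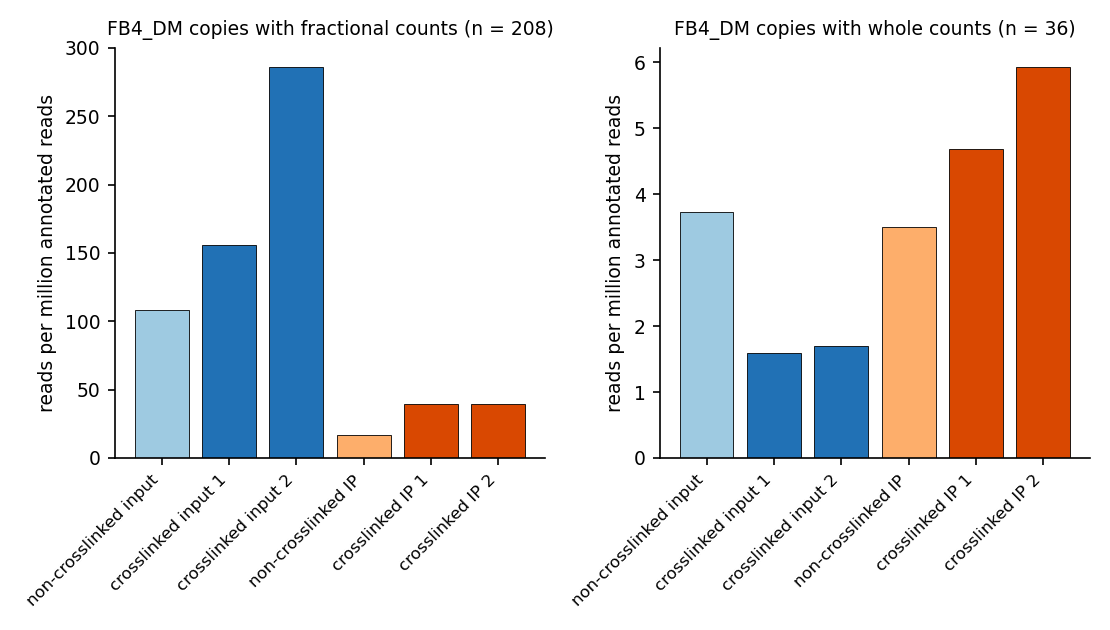
Summed level of FB4_DM copies in each library (bars, RPM, y axes from 0 with different ranges), for the 208 copies with fractional counts (left) and the 36 with whole counts in all 6 libraries (right). The fractional copies stand lower in the crosslinked IPs than in the inputs (means 39.3 and 221), and the whole-count copies higher (means 5.30 and 1.64). The rule for whole counts favours copies with few input reads.

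Of the other 17 tested elements, 14 had a higher mean RPM of whole-count copies in crosslinked IP than in crosslinked input. The other 3 had a lower one (BARI1, NOF_FB and TC1-2_DM), and many of the 17 rested on a few reads. The rule for whole counts favours copies with few input reads here too, since the crosslinked inputs were deeper than the crosslinked IPs. The same count over other classes or all features was not made, so it is not known whether this is particular to DNA transposons. The whole-count copies of PROTOP_B were 2.70-fold higher and those of PROTOP_A 2.41-fold higher. For BARI1 the 5 whole-count copies held 20 and 48 reads in crosslinked inputs against 0 and 2 in crosslinked IPs, and its other 8 copies went from 6.01 to 1.62 RPM. The 248 whole-count copies of all DNA transposons other than FB4_DM went from 11.9 ± 2.52 to 19.9 ± 0.621 RPM (SD, n = 2 each), and the other 1823 copies from 204 ± 44.2 to 178 ± 20.1 RPM.

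Of the 2071 copies of other DNA transposons, 37 passed the minimum as single features, and 10 of these were called higher, 14 lower and 13 did not pass, beside 22.2% of all features called higher and 19.7% lower. The share called higher lay near that background. In 7 of the 14 called lower both IPs held at most 3 reads. Without crosslinked IP 2, 4 copies were called higher. The copies of an element mostly went the way of the element. All 6 tested M4DM copies were called higher, with log2 ratios from 0.89 to 1.13, and 3 of 4 TC1-2_DM copies were called higher. The M4DM copies do not count the result independently. M4DM_dup39 and M4DM_dup41 had the same counts in all 4 crosslinked libraries, as had M4DM_dup42 and M4DM_dup43. Of 9 S_DM copies, 6 were called lower, but in 5 of the 6 both IPs held at most 3 reads, so that these passed the minimum only through the inputs and had to be lower. The P-related repeats were mixed: of 10 tested copies of PROTOP, PROTOP_A and PROTOP_B, 1 was higher, 5 lower and 4 did not pass.

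The copies with the most reads outside FB4_DM were NOF_FB_dup2, PROTOP_dup454 and TC1-2_DM_dup55. NOF_FB_dup2 had 300.0 and 280.3 reads in crosslinked inputs against 38 and 44 in crosslinked IPs, so it carried most reads of its element, with a log2 ratio of -2.19 ± 0.21 (SE, adjusted p = 4.43e-05 by edgeR). PROTOP_dup454 had 78.7 and 89.2 reads in the inputs and 6 and 4 in the IPs, with a log2 ratio of -3.40 ± 0.42 (SE, adjusted p = 0.000191 by edgeR), while PROTOP as a whole did not pass. This copy had 2 reads in each non-crosslinked library. TC1-2_DM_dup55 had 56.2 and 33.0 reads in the inputs and 30.3 and 43.9 in the IPs, and its log2 ratio of 0.39 ± 0.25 (SE) did not pass, with an adjusted p of 0.237 by edgeR.

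The authors' deposited table of ratios, whose formula is not stated, lists 65 FB4_DM copies with a median ratio of 0.112, and 13 of them are above 1, against 65.7% of all features in it. It lists 392 copies of other DNA transposons with a median of 1.54, beside a median of 1.36 over all 39941 features in the authors' deposited table. All 34 M4DM copies in the authors' deposited table are above 1, and the 65 S_DM copies have a median of 0.492.

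Host genes of DNA transposons were looked at as messenger RNAs in the same libraries, exons and introns apart. The list held 15 genes: regulators of the splicing of the third intron of the P element (Psi, Hrb27C, snRNP-U1-70K, U2af50), factors that repair the break left by excision (Irbp and Ku80, which form the Ku heterodimer, Irbp18, Blm, mus308), and genes of transposon silencing (piwi, Panx, nxf2, egg, mael, arx). Of 15 genes by exons, 0 were higher in crosslinked IP, 5 were lower, 8 did not pass and 2 (Irbp18 and arx) were under the minimum. After adjustment the same edgeR fit called 19.9% of all items higher and 18.3% lower. At an unadjusted p under 0.05 edgeR gave 0 higher and 6 lower of the 13 tested. Of all 9446 items, 4364 had such a p in either direction, so this count lay near the background. DESeq2 called 0 higher and 2 lower of the 13 after adjustment, beside 1109 higher and 749 lower of 9262 items. The median log2 ratio of the 13 tested exon items was -0.64, and that of all 5696 exon items was -0.24.

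Of the splicing group, 0 of 4 passed by exons in edgeR, DESeq2 or limma, and 0 of 4 had an unadjusted p under 0.05. Psi, the somatic repressor of that splicing step, had 19.6 and 16.1 RPM in crosslinked inputs against 19.7 and 22.7 RPM in IPs. Of the repair group, Blm, a helicase, had a log2 ratio of -0.98 ± 0.23 (SE, adjusted p = 0.00232 by edgeR), and mus308, the DNA polymerase theta of flies, had -0.88 ± 0.18 (SE, adjusted p = 0.000685 by edgeR). Of the silencing group, exons of mael (-0.79), the histone methyltransferase gene egg (-0.78) and piwi (-0.69) were lower. Introns went differently: 2 of 15 genes passed the minimum, and both were higher. Introns of piwi had 44 and 23 reads in crosslinked inputs against 148.5 and 133.8 in IPs, with a log2 ratio of 2.68 ± 0.18 (SE, adjusted p = 1.36e-09 by edgeR). Introns of Hrb27C had 63 and 39.6 reads in the inputs and 86.7 and 81.4 in the IPs, with a log2 ratio of 1.31 ± 0.18 (SE, adjusted p = 1.04e-05 by edgeR). All 1897 intron items had a median of 0.67. Introns of piwi were also higher in the IP without UV, at 2.49 RPM in non-crosslinked input against 8.10 RPM in non-crosslinked IP. Those of Hrb27C stood at 2.65 RPM against 0.438 RPM in that pair, the latter from 1 read.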

How the data were processed

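Each library has 1 deposited file giving the authors' estimated count and RPM of every feature with reads. The deposited estimated counts are fractional but sum to whole numbers per library, so reads matching several features were divided between them. The deposited RPM is scaled to the library total, rRNA and unannotated reads included. RPM in the text was recomputed from the counts relative to annotated reads, leaving out the unannotated row, whose share is given above. The authors' deposited table of ratios per feature states no formula. Per the submitters' processing notes, bcl2fastq 2.19, STAR 2.5.2b and bedtools 2.29.0 were used and the builds mm10 and dm6 are named, with no role for any. Strand and the treatment of PCR copies are not given in the sources used here, and the files give no coordinates or sequences of copies, so none are printed.

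Estimated counts were summed per element, gene part or tRNA anticodon and rounded. Items averaging 10 counts or more in the 4 crosslinked libraries were fitted with edgeR 4.0.16 (TMM, quasi-likelihood test) in R 4.3.3, with Benjamini-Hochberg adjustment over all items at 0.05. Single features were fitted likewise, and the difference between ratios with and without crosslinking was an interaction over 6 libraries. The SE beside an edgeR log2 ratio was derived as the absolute ratio divided by the square root of the test's F statistic. It is not an error that the fit itself estimates, and at counts near 0 it depends on the prior count. DESeq2 1.42.0 and limma 3.58.1 were alternatives. Features not listed in a library were set to 0, and 3 counts were taken as the floor of a library. In RPM that floor is 0.191 to 1.31.

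Replicates differed by more than sampling noise (chi-square per degree of freedom 9.49 for inputs and 6.84 for IPs). All elements over the minimum are named, with the 3 largest under it, the 3 FB4_DM and 3 other copies with the most reads, and the 2 FB4_DM copies at either end of the ratios. The host genes, markers and compared classes were listed likewise. Members and lists were chosen with earlier results of these data known.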

Additional observations from a re-analysis of the deposited data

Results flagged for a closer look

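The IP over input ratio with crosslinking less that without differed from 0 for 2 of 17 DNA transposons by the interaction test of edgeR. For TRANSIB3 the log2 difference was 2.94 (adjusted p = 0.0111), with adjusted p-values from 0.00275 to 0.053 over 7 alternatives. It was no longer called without crosslinked IP 2. For Mariner2_DM the fitted difference was 9.24 (adjusted p = 0.0191), with adjusted p-values from 0.00104 to 0.0638, and it was likewise not called without crosslinked IP 2. The non-crosslinked IP held 0 reads of Mariner2_DM, so that fitted size depends on the prior count and is no bound. Each non-crosslinked group has 1 library.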

How the results depend on the processing

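The log2 ratio of FB4_DM kept its direction and call in 11 alternatives, as did those of NOF_FB, S_DM, M4DM and TC1-2_DM, and BARI1 in 10. Leaving out 1 library in turn gave -2.76 to -1.82 for FB4_DM. Elements called higher numbered 2 under DESeq2 and 2 to 6 with 1 library left out. DESeq2 called 1109 items higher and 749 lower, against 1879 and 1732 by edgeR, and gave an adjusted p for 9262 of 9446 items. Of single features it called 2291 higher and 1299 lower of 16057, against 3940 and 3501 of 17781 by edgeR. FB4_DM copies called higher numbered 0 of 45 under DESeq2 and 8 of 181 with no filter beyond 1 count, against 2 of 49, and 0 to 2 with 1 library left out. Other copies called higher numbered 1 of 31 under DESeq2, against 10 of 37 (4 to 11 with 1 library left out). Other copies called lower numbered 8 of 31 under DESeq2 and 48 of 1178 with no filter beyond 1 count, against 14 of 37 (11 to 16 with 1 library left out). At a minimum of 100 counts 1 other copy was left, so the counts there (0 higher, 1 lower) say nothing about stability.

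In the interaction test, 5 elements were called higher without TMM scaling, and 0 to 5 with 1 library left out; 0 were called lower in any of these. The FB4_DM difference reversed to 0.16 without TMM and ran from -0.79 to 0.14 with 1 library left out. The FB4_DM share of DNA transposon reads differed by -42.2 points with only copies of at least 10 counts, against -31.5 over all copies. That minimum favours copies with many input reads: in 35 of the 49 FB4_DM copies over it both IPs held at most 3 reads. The wider gap is thus partly built in by the filter. Among elements that did not pass, PROTOP reversed to 0.013 at 100 counts, and with 1 library left out the ratios reached either sign for PROTOP (-0.23 to 0.13), PROTOP_A (-0.54 to 0.025), POGO (-0.071 to 0.44), Transib5 (-0.29 to 0.78) and TRANSIB1 (-0.38 to 0.28). The causes were not tested. The labels do not say whether same-numbered IP and input libraries share a lysate, and the numbers were not taken as pairs. Deviations of same-numbered IP and input libraries correlated at 0.04 over 9446 items. With the replicate block, FB4_DM stood at -2.30, 5 elements were higher and 4 lower, and FB4_DM copies were 3 higher and 46 lower. Elements with under 3 reads in a non-crosslinked library, and single copies in IPs, are at the limit of depth.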
